A study of Mus musculus with 24 samples.

Results

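The 37 genes described here are the members of the 4 mouse Hox clusters that were measured by a probe set with exactly 1 platform gene symbol, Hoxa, Hoxb, Hoxc or Hoxd followed by a number. They are 37 of 19938 genes measured in that way, 10 in the HoxA cluster and 9 each in HoxB, HoxC and HoxD, and each was read by 1 probe set. The probe set of Hoxb8 carries a further symbol, so Hoxb8 was not analysed here.

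The study measured total RNA from 3 kinds of mouse cell, each with and without an inflammatory supernatant that stands in for Chlamydia infection, on 24 Affymetrix arrays in 6 groups of 4. C57epi.1, labelled an epithelial line, came from C57BL/6 upper reproductive tract. Bm12.4, labelled likewise, came from that tissue of the strain B6(C)-H2-Ab1bm12/KhEgJ, whose MHC class II carries the bm12 allele. The macrophages derive from C57BL/6 femur bone marrow cultured with GM-CSF. All cells were kept in RPMI medium with serum, and the control groups received this medium alone. The treated groups received 33% (v/v) conditioned medium from a CD4 T cell clone, specific for Chlamydia, that had been kept with an infected epithelial monolayer, and interferon-gamma was brought to 4 ng/ml. The labels used here do not state age, sex, passage or length of treatment. Each reproductive tract strain is represented by 1 line, so strain and line cannot be told apart, and nothing in the labels says whether the 4 arrays of a group came from separate cultures. The p-values then measure only the spread between these arrays, which may be technical.

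Hox genes encode homeodomain transcription factors that set position along the body axis, and they lie in 4 clusters in which gene order matches the order of their expression domains, paralogue group 1 at the 3′ end and group 13 at the 5′ end. Cells cultured from adult organs often keep a Hox pattern that reflects the position they came from, held in place by Polycomb and trithorax proteins. In the female tract, Hoxa9, Hoxa10, Hoxa11 and Hoxa13 are known for successive domains from oviduct through uterus and cervix to the upper vagina, and in blood cells HoxA and HoxB genes are known in stem and progenitor cells and decline as cells mature.

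Levels are deposited log2 values made with RMA, a method that brings the arrays to a common distribution, and a difference of 1 between groups is 2-fold. Array medians lay between 5.00 and 5.19, and no 2 arrays were identical. The mean level of 10 macrophage genes was 11.92 to 12.30 in the macrophage arrays and 4.14 to 4.91 in the arrays of both lines. The mean of 8 epithelial genes was 5.43 to 6.13 in the lines and 4.73 to 5.04 in macrophages, and of these genes Krt8 was at 9.25 ± 0.40 in C57epi.1 and at 5.67 ± 0.21 in Bm12.4 without supernatant (SD, n = 4). Krt19, a keratin gene of the same list, was high in both lines. Its means without supernatant were 11.31 (C57epi.1) and 11.77 (Bm12.4), against 4.32 (macrophages). Epcam, a defining epithelial adhesion gene, was at 3.74 ± 0.14, 3.70 ± 0.09 and 3.71 ± 0.09 in C57epi.1, Bm12.4 and macrophages in media, and Cdh1 was lower in both lines than in macrophages. The mean of 5 mesothelial genes was 8.01 to 9.84 in the lines against 4.51 to 4.96 in macrophages, and the mean of 8 stromal genes 9.55 to 10.86 against 5.64 to 6.19. In media, arrays 3 and 4 of each line stood apart from arrays 1 and 2: the mean of 9 cell cycle genes was 10.53, 10.45, 9.39 and 9.47 in C57epi.1 and 10.19, 10.18, 7.44 and 7.76 in Bm12.4, and the labels name no batch that matches this division.

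RefSeq sequences (build GRCm38.p6) around the annotated starts were matched for 21 of the 37 genes, with 23 windows reaching from 250 bases before to 50 bases after a start. The windows held a median of 15 CpG dinucleotides, against 7 over all 32851 windows of the same length, with a range from 4 to 45. The 250 bases before the start are printed for Hoxa10, Hoxa11 and Hoxa13, neighbouring posterior HoxA genes of which Hoxa11 and Hoxa13 differed between the lines and Hoxa10 was not called, and for Hoxc4, the only HoxC gene with a sequence in the table used. The printed starts of Hoxa10 and Hoxa13 lie 4956 and 15070 bases from that of Hoxa11 on chromosome 6. The table holds a further Hoxa10 start, not printed, whose window at chr6:52234890-52235189 has 21 CpG, against 12 in the whole window of the printed start. Capitals mark CG, and each line reads 5′ to 3′ on the strand of the gene.
Hoxa10, chr6:52240855-52241104, minus strand, 7 CG: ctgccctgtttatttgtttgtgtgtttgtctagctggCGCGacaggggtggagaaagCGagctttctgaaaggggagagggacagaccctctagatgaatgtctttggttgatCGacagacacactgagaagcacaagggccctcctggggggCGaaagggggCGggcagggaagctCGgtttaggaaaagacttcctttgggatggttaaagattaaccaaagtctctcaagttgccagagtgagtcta
Hoxa11, chr6:52245811-52246060, minus strand, 13 CG: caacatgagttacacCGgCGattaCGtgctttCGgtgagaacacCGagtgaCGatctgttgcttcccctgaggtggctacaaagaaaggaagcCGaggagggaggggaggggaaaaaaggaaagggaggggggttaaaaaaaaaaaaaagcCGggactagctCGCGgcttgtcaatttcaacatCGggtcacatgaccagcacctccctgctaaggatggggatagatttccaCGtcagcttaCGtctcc
Hoxa13, chr6:52260881-52261130, minus strand, 35 CG: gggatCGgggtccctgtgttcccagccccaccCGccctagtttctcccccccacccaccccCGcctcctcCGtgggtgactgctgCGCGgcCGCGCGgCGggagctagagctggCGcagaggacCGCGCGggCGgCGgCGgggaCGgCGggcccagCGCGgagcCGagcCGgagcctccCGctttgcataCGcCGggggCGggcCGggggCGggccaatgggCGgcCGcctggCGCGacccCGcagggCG
Hoxc4, chr15:103034145-103034394, plus strand, 8 CG: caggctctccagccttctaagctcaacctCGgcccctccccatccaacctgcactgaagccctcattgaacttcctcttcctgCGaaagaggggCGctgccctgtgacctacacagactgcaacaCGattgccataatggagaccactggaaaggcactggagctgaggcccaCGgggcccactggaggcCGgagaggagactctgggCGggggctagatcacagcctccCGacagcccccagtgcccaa
A search of both strands of the 23 windows found the interferon-gamma activated site TTCNNNGAA in 1 window, that of Hoxd4, against 8.30% of all windows. The interferon-stimulated response element, searched as GAAA, any 2 bases and GAAA, was in 0 of the 23, against 3.44% of all. The Hox-Pbx site TGATNNAT was in 3 of the 23, those of Hoxd11, Hoxa2 and Hoxb1, against 8.85%. A direct repeat of AGGTCA spaced by 5 bases was in 0 of the 23 and in 0.00913% of all windows. None of the 4 motifs was found in the windows of the 4 genes printed.

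The first comparison asks which Hox genes stood higher in the reproductive tract lines than in macrophages. Both lines had many Hox genes at a higher level, among them Hoxd8, Hoxa9, Hoxb9, Hoxa10 and Hoxb7, and C57epi.1 in addition had 8 HoxC genes and Hoxa11. In media, 26 of the 37 genes were higher and 2 lower in C57epi.1 than in macrophages (limma, adjusted p under 0.05), while 22.7% of all genes were called higher and 21.8% lower. In Bm12.4, 18 were higher and 1 lower, against 22.1% and 20.8% of all genes. The median difference over the 37 genes was 0.87 in C57epi.1 and 0.20 in Bm12.4, where the median over all genes was 0.00 and 0.01. By cluster, the genes called higher in C57epi.1 were 9 of 10 in HoxA, 5 of 9 in HoxB, 8 of 9 in HoxC and 4 of 9 in HoxD. In Bm12.4 they were 8 of 10, 4 of 9, 0 of 9 and 6 of 9. In supernatant, 23 genes were higher and 1 lower in C57epi.1, where 47.0% of all genes were called in either direction, and 18 were higher and 0 lower in Bm12.4, where 21.9% of all genes were called higher and 21.9% lower. In these whole cultures, fewer cells that express a gene and less RNA per cell cannot be told apart.

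**Figure D1:**
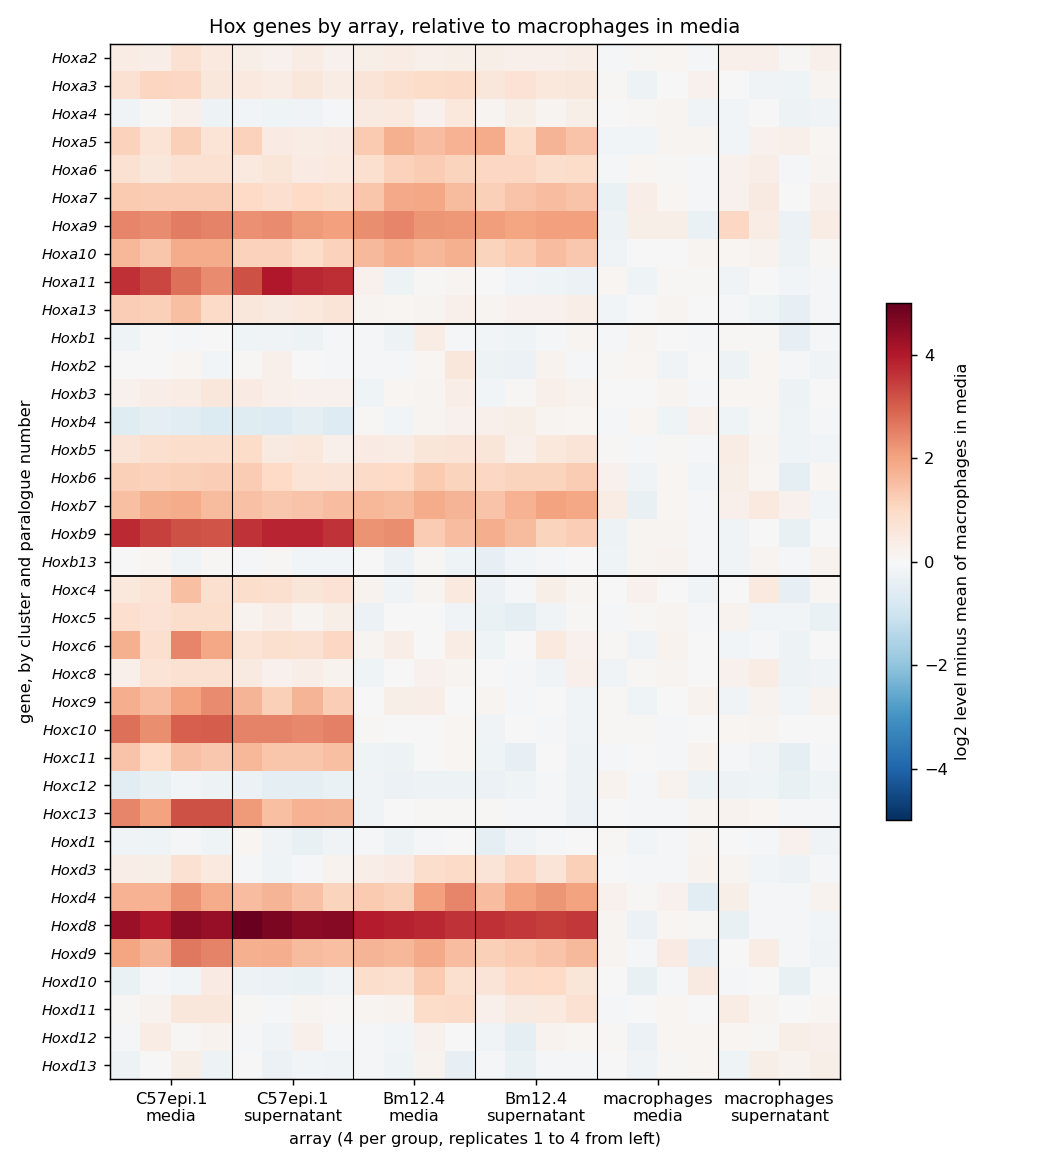
Log2 level of each of the 37 Hox genes (rows, by cluster and paralogue number) on each of the 24 arrays (columns, 4 per group), relative to the mean of that gene in macrophages in media; red is higher and blue lower. The rows of Hoxc6, Hoxc9, Hoxc10, Hoxc11, Hoxc13 and Hoxa11 are redder in the 8 C57epi.1 arrays than in the 8 Bm12.4 arrays, and the Hoxd8 row is red in all 16 arrays of both lines.

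No detection call was used here, so each group mean was set against the 95th percentile of the group means of 1231 olfactory, vomeronasal and taste receptor genes (4.12 to 4.27) and of 44 transcription factors of brain, eye and pancreas (5.62 to 5.96). Above both lay 17 of the 37 genes in C57epi.1 in media, 12 in Bm12.4 in media, and 15 and 14 in supernatant. In macrophages 2 genes, Hoxa4 and Hoxa7, lay above both in media and in supernatant. HoxC genes above both were 4 and 3 in C57epi.1 in media and in supernatant, and 0 in the other 4 groups. These counts depend on the percentile: with the 99th they were 4, 4 and 0 in media and 4, 3 and 0 in supernatant for C57epi.1, Bm12.4 and macrophages, and with the 90th the macrophages in supernatant had 4. Of the 37 genes, 20 lay above both references in at least 1 group and their arrays are given one by one. The other 17 never did, and their arrays lay between 3.29 and 6.10. They are Hoxa2, Hoxa3, Hoxa6, Hoxb1, Hoxb2, Hoxb5, Hoxb13, Hoxc4, Hoxc5, Hoxc8, Hoxc11, Hoxc12, Hoxd1, Hoxd10, Hoxd11, Hoxd12 and Hoxd13. A low level does not show that a gene was silent, since probe sets differ in their background.

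In the HoxC cluster, 8 of the 9 genes were higher in C57epi.1 than in Bm12.4 in media, 5 of them by more than 1 log2 unit, and 8 of the 9 were not called between Bm12.4 and macrophages. Over all genes, 24.4% were called in either direction and 7.54% by at least 2-fold. No HoxC gene of Bm12.4 or macrophages lay above both references, so these differences are set against a low signal and no fold is given for them. Hoxc6, a gene of the thoracic region and mammary gland, read 5.89, 4.95, 6.57 and 6.05 on the 4 C57epi.1 arrays in media, against 4.25, 4.44, 4.11 and 4.48 in Bm12.4 and 4.16, 3.95, 4.28 and 4.08 in macrophages. In supernatant it gave 4.79, 4.91, 4.87 and 5.15 in C57epi.1, 3.91, 4.10, 4.59 and 4.35 in Bm12.4 and 3.98, 4.01, 3.86 and 4.08 in macrophages. The C57epi.1 arrays lay above all others in each condition, and their spread in media (SD 0.68) was the widest of the 6 groups. Hoxc9, known for the thoracic identity of vertebrae and motor neurons, read 6.60, 6.33, 6.79 and 7.12 in C57epi.1, 4.81, 5.08, 5.09 and 4.80 in Bm12.4 and 4.82, 4.56, 4.76 and 4.95 in macrophages in media. Its arrays in supernatant gave 6.49, 5.97, 6.46 and 6.02 in C57epi.1, 4.90, 4.67, 4.78 and 4.61 in Bm12.4 and 4.61, 4.93, 4.62 and 4.95 in macrophages. No Bm12.4 or macrophage array reached a C57epi.1 array.

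Hoxc10, a gene of the lumbar region and hind limb, read 6.84, 6.42, 7.09 and 7.12 in C57epi.1 in media, 4.15, 4.06, 4.05 and 4.19 in Bm12.4 and 4.13, 4.16, 3.99 and 4.07 in macrophages. The values in supernatant were 6.56, 6.56, 6.50 and 6.59 in C57epi.1, 3.91, 4.06, 4.02 and 3.90 in Bm12.4 and 4.18, 4.24, 4.12 and 4.06 in macrophages. Bm12.4 and macrophages overlapped, and both lay more than 2 units under every C57epi.1 array. Hoxc13, best known in hair follicles and nails, read 6.64, 6.19, 7.36 and 7.35 in C57epi.1, 4.01, 4.19, 4.25 and 4.26 in Bm12.4 and 4.22, 4.07, 4.13 and 4.31 in macrophages in media. In supernatant it read 6.32, 5.70, 5.93 and 5.90 in C57epi.1, 4.25, 4.10, 4.11 and 3.87 in Bm12.4 and 4.36, 4.28, 4.08 and 4.10 in macrophages. Its C57epi.1 arrays 3 and 4 in media stood above arrays 1 and 2, and all 8 C57epi.1 arrays stood above the other two kinds of cell.

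By limma, the difference between C57epi.1 and Bm12.4 in media was 2.75 ± 0.11 (SE) for Hoxc10, with an adjusted p of 2.23e-15. For Hoxc13 it was 2.71 ± 0.19 (adjusted p = 7.35e-11), for Hoxc9 1.76 ± 0.15 (adjusted p = 3.19e-09) and for Hoxc6 1.54 ± 0.21 (adjusted p = 5.69e-06). In supernatant the differences were 2.58 ± 0.11 for Hoxc10, 1.88 ± 0.19 for Hoxc13, 1.50 ± 0.15 for Hoxc9 and 0.69 ± 0.21 for Hoxc6, and all 4 were called. Every alternative setting run kept the calls of Hoxc9, Hoxc10 and Hoxc13 in both conditions and that of Hoxc6 in media. The alternatives were not run for Hoxc6 in supernatant. The 4 HoxC genes of lower signal that were also called in media were Hoxc11 (1.39 ± 0.12), Hoxc5 (0.95 ± 0.11), Hoxc4 (0.73 ± 0.19) and Hoxc8 (0.59 ± 0.14). Their arrays did not overlap between the lines, but overlap was not counted over all genes. Hoxc12 was not called between the lines (-0.08 ± 0.10, 95% interval -0.29 to 0.12). Against macrophages in media, Hoxc12 was lower in both lines, at -0.33 ± 0.10 in C57epi.1 and -0.25 ± 0.10 in Bm12.4, and no other HoxC gene was called in Bm12.4. HoxC differences between Bm12.4 and macrophages lay between -0.25 and 0.20.

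**Figure D2:**
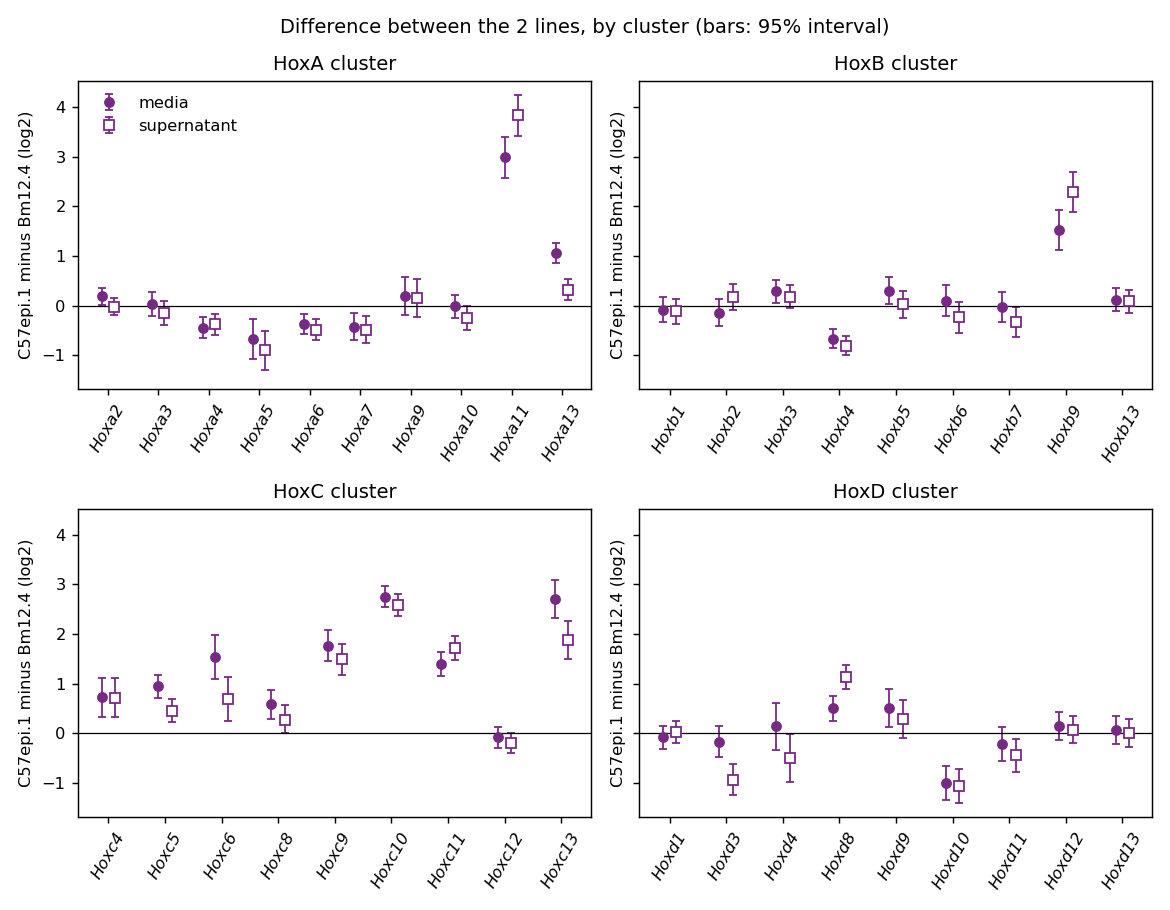
Difference in log2 level between C57epi.1 and Bm12.4 for each Hox gene, 1 panel per cluster, in media (filled circles) and in supernatant (open squares), with 95% intervals from limma over 4 arrays per group. In the HoxC panel all genes but Hoxc12 lie above 0 in media, up to 2.75 for Hoxc10, while the called genes Hoxa4 to Hoxa7, Hoxb4 and Hoxd10 lie under 0.

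In the HoxA cluster the largest differences between the lines in media lay at its 5′ end. Hoxa11 and Hoxa13 were higher in C57epi.1, while Hoxa4 to Hoxa7 were lower there by less than 2-fold, and Hoxa9 and Hoxa10 were not called between the lines in media. Hoxa11, a gene of the uterus and the forearm in development, read 7.65, 7.37, 6.75 and 6.39 in C57epi.1 in media, 4.22, 3.77, 4.08 and 4.14 in Bm12.4 and 4.10, 3.81, 4.06 and 4.08 in macrophages. With supernatant its arrays gave 7.18, 8.03, 7.79 and 7.70 in C57epi.1, 3.99, 3.89, 3.78 and 3.73 in Bm12.4 and 3.85, 3.99, 3.86 and 3.97 in macrophages. Bm12.4 overlapped macrophages, and the lowest C57epi.1 array lay above the highest of these by more than 2 units. Hoxa13, the most 5′ gene of the cluster and a gene of the lower tract, read 6.10, 6.05, 6.37 and 5.82 in C57epi.1, 5.01, 4.96, 5.00 and 5.13 in Bm12.4 and 4.75, 4.87, 5.00 and 4.87 in macrophages in media. Its arrays in supernatant gave 5.45, 5.32, 5.41 and 5.53 in C57epi.1, 5.02, 5.09, 5.09 and 5.22 in Bm12.4 and 4.81, 4.66, 4.46 and 4.76 in macrophages. C57epi.1 lay above both other kinds of cell in each condition, by less in supernatant.

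Hoxa10, a gene of the uterus that is needed for implantation, read 6.90, 6.61, 7.09 and 7.08 in C57epi.1, 6.84, 7.04, 6.87 and 6.99 in Bm12.4 and 5.04, 5.23, 5.25 and 5.38 in macrophages in media. In supernatant it read 6.36, 6.37, 6.13 and 6.38 in C57epi.1, 6.35, 6.55, 6.78 and 6.57 in Bm12.4 and 5.34, 5.40, 4.99 and 5.28 in macrophages. The lines overlapped in media, and both lay above macrophages. Hoxa9, known in the oviduct and in blood progenitors, read 7.78, 7.70, 7.90 and 7.84 in C57epi.1, 7.66, 7.77, 7.53 and 7.50 in Bm12.4 and 5.07, 5.65, 5.64 and 5.01 in macrophages in media. The arrays in supernatant were 7.61, 7.69, 7.49 and 7.41 in C57epi.1, 7.45, 7.30, 7.40 and 7.40 in Bm12.4 and 6.36, 5.70, 5.05 and 5.73 in macrophages. Both lines were above every macrophage array. Between the lines in media, limma gave -0.01 ± 0.12 for Hoxa10 (95% interval -0.25 to 0.22) and 0.19 ± 0.18 for Hoxa9 (-0.19 to 0.57).

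Hoxa7 read 7.49, 7.45, 7.46 and 7.47 in C57epi.1, 7.58, 8.07, 8.13 and 7.78 in Bm12.4 and 5.85, 6.51, 6.30 and 6.10 in macrophages in media. In supernatant the values were 7.20, 7.03, 7.18 and 7.06 in C57epi.1, 7.40, 7.62, 7.74 and 7.62 in Bm12.4 and 6.39, 6.65, 6.19 and 6.45 in macrophages. Bm12.4 lay above C57epi.1 and both above macrophages, with no overlap in either condition. Hoxa5, a gene of the lung and the cervical and upper thoracic region, read 5.48, 5.01, 5.53 and 5.03 in C57epi.1, 5.65, 6.10, 5.87 and 6.09 in Bm12.4 and 4.19, 4.18, 4.49 and 4.48 in macrophages in media. Its values in supernatant were 5.50, 4.74, 4.70 and 4.74 in C57epi.1, 6.20, 5.27, 6.04 and 5.76 in Bm12.4 and 4.19, 4.55, 4.60 and 4.44 in macrophages, and there 1 C57epi.1 array lay within the range of Bm12.4. Hoxa4 read 5.87, 6.10, 6.28 and 5.77 in C57epi.1, 6.47, 6.53, 6.24 and 6.55 in Bm12.4 and 6.03, 6.08, 6.18 and 5.84 in macrophages in media. The supernatant groups read 5.91, 5.80, 5.84 and 5.96 in C57epi.1, 6.18, 6.32, 6.16 and 6.32 in Bm12.4 and 5.88, 6.01, 5.76 and 5.84 in macrophages. C57epi.1 overlapped macrophages in Hoxa4, and Bm12.4 was above both in mean.

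By limma, Hoxa11 differed between C57epi.1 and Bm12.4 by 2.99 ± 0.20 in media (adjusted p = 4.13e-11), and by 3.83 ± 0.20 in supernatant (adjusted p = 4.62e-13). Its Bm12.4 level lay under both references, so the size rests on a low signal. Hoxa13 differed by 1.06 ± 0.10 in media (adjusted p = 1.28e-08) and by 0.32 ± 0.10 in supernatant (adjusted p = 0.0139), a call lost within arrays 3 and 4 (0.31, limma adjusted p = 0.181). The genes lower in C57epi.1 in media were Hoxa5 (-0.67 ± 0.19), Hoxa4 (-0.44 ± 0.10), Hoxa7 (-0.42 ± 0.13) and, among the genes of lower signal, Hoxa6 (-0.36 ± 0.10). Of these, Hoxa4, Hoxa5 and Hoxa7 each lost the call in at least 1 alternative in media, Hoxa5 within arrays 1 and 2 alone (-0.63, limma adjusted p = 0.209). Hoxa7 lost it without Bm12.4 media replicate 2 (-0.36, limma adjusted p = 0.0618) and without Bm12.4 media replicate 3 (-0.34, adjusted p = 0.0806). With only the arrays of these 2 groups, Hoxa4 had an adjusted p of 0.0601 and Hoxa7 of 0.063, and with the replicate number as a block in addition Hoxa4 had 0.0566 and Hoxa6 0.0609, so that both lost the call. Against macrophages in media, the largest HoxA differences were 3.03 ± 0.20 for Hoxa11 and 2.46 ± 0.18 for Hoxa9 in C57epi.1, and 2.27 ± 0.18 for Hoxa9, 1.71 ± 0.12 for Hoxa10 and 1.70 ± 0.13 for Hoxa7 in Bm12.4. Hoxa11 in Bm12.4 was not called against macrophages (0.04 ± 0.20). The call of Hoxa4 in Bm12.4 against macrophages was lost within arrays 3 and 4 in media (0.39, limma adjusted p = 0.0914). In supernatant that of Hoxa4 was lost with quantile normalization (0.23, adjusted p = 0.0856). It was also lost there within arrays 1 and 2 (0.31, adjusted p = 0.0609) and within arrays 3 and 4 (0.44, adjusted p = 0.0548).

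**Figure D3:**
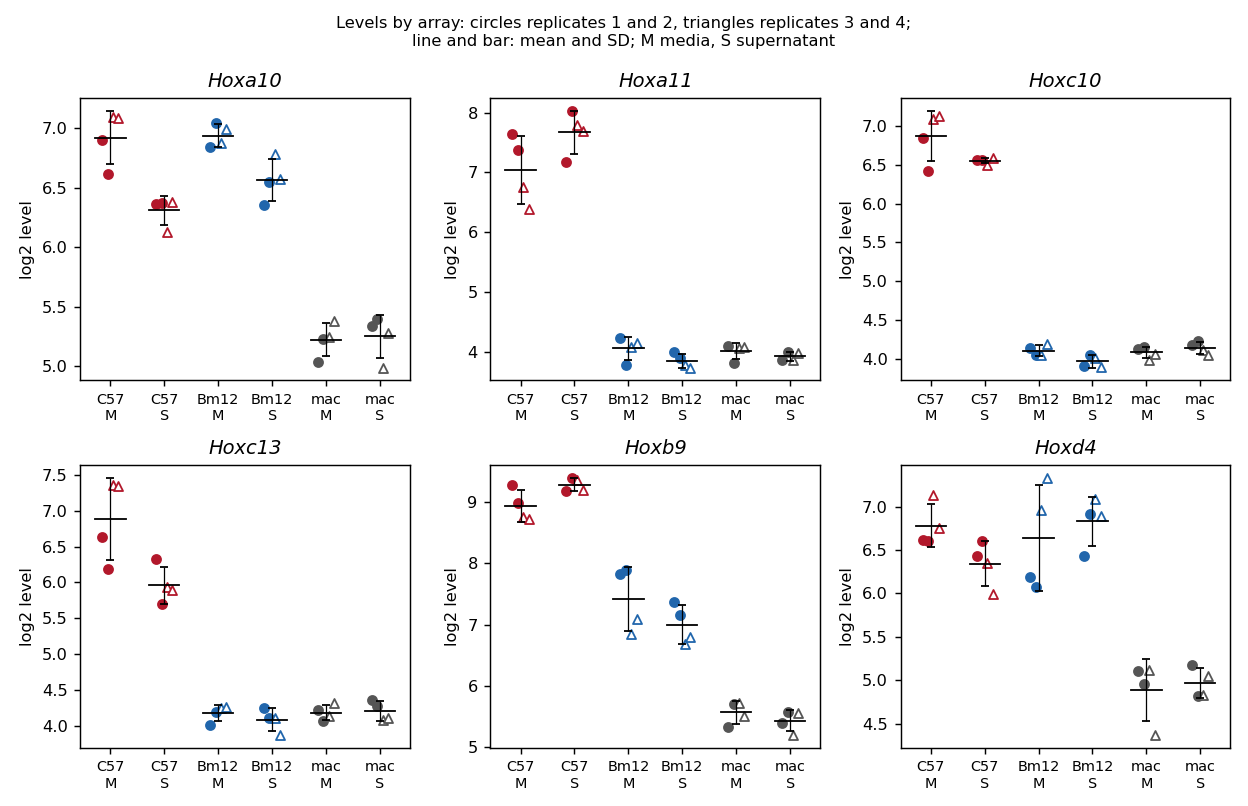
Log2 level of 6 Hox genes on every array, by group, with mean and SD of 4 arrays; C57 is C57epi.1, Bm12 is Bm12.4, mac is macrophages, M is media and S is supernatant. Hoxa10 and Hoxd4 lie above macrophages in both lines, Hoxa11, Hoxc10 and Hoxc13 lie above the other groups in the 8 C57epi.1 arrays, and Hoxb9 is highest in C57epi.1, with Bm12.4 between it and the macrophages.

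In the HoxB cluster, Hoxb6, Hoxb7 and Hoxb9 stood above macrophages in both lines, and Hoxb9 and Hoxb4 differed between the lines in opposite directions. Hoxb9, a posterior gene also known in the mammary gland, read 9.28, 8.98, 8.76 and 8.72 in C57epi.1 in media, 7.83, 7.89, 6.84 and 7.10 in Bm12.4 and 5.33, 5.71, 5.72 and 5.51 in macrophages. In supernatant it read 9.19, 9.39, 9.37 and 9.20 in C57epi.1, 7.37, 7.15, 6.69 and 6.80 in Bm12.4 and 5.40, 5.57, 5.20 and 5.55 in macrophages. The 3 kinds of cell did not overlap in either condition. Limma gave a difference between the lines of 1.52 ± 0.20 in media (adjusted p = 1.99e-06) and 2.29 ± 0.20 in supernatant (adjusted p = 2.91e-09). Against macrophages in media it was 3.37 ± 0.20 in C57epi.1 and 1.85 ± 0.20 in Bm12.4.

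Hoxb4, known for the expansion of blood stem cells, read 5.24, 5.37, 5.33 and 5.16 in C57epi.1, 5.93, 5.73, 6.00 and 6.07 in Bm12.4 and 5.75, 5.97, 5.65 and 6.06 in macrophages in media. Its supernatant values were 5.27, 5.21, 5.35 and 5.20 in C57epi.1, 6.11, 6.15, 6.01 and 5.96 in Bm12.4 and 5.65, 5.91, 5.64 and 5.78 in macrophages. It was the 1 gene above the low-signal references in some group that was lower in C57epi.1 than in macrophages, by -0.58 ± 0.09 in media (limma adjusted p = 1.58e-05), and it was lower than in Bm12.4 by -0.66 ± 0.09 (adjusted p = 9.31e-06). Hoxb4 did not pass the 2 references in C57epi.1 or in macrophages. In supernatant it was called higher in Bm12.4 than in macrophages. That call was lost with quantile normalization (0.20, limma adjusted p = 0.0966) and within arrays 3 and 4 (0.28, adjusted p = 0.135).

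Hoxb7 read 6.83, 7.08, 7.16 and 6.91 in C57epi.1, 6.98, 6.89, 7.17 and 7.03 in Bm12.4 and 5.68, 4.93, 5.43 and 5.24 in macrophages in media. Its values in supernatant were 6.78, 6.68, 6.73 and 6.88 in C57epi.1, 6.75, 7.07, 7.32 and 7.24 in Bm12.4 and 5.59, 5.80, 5.53 and 5.20 in macrophages. Hoxb6 read 6.54, 6.50, 6.55 and 6.58 in C57epi.1, 6.31, 6.35, 6.65 and 6.45 in Bm12.4 and 5.57, 5.17, 5.44 and 5.21 in macrophages in media. For both genes the macrophages lay under both lines, by 1.68 ± 0.14 and 1.70 ± 0.14 for Hoxb7 and by 1.20 ± 0.15 and 1.09 ± 0.15 for Hoxb6 in media. In supernatant Hoxb6 read 6.62, 6.36, 6.03 and 6.01 in C57epi.1, 6.37, 6.48, 6.48 and 6.63 in Bm12.4 and 5.65, 5.45, 4.84 and 5.44 in macrophages. Hoxb3 read 5.88, 5.99, 6.03 and 6.21 in C57epi.1, 5.43, 5.74, 5.80 and 5.99 in Bm12.4 and 5.62, 5.64, 5.78 and 5.58 in macrophages in media and was called higher in C57epi.1 than in macrophages (0.37 ± 0.11), a call lost within arrays 1 and 2 alone (limma adjusted p = 0.0853). In supernatant it read 6.06, 5.92, 5.87 and 5.86 in C57epi.1, 5.53, 5.73, 5.91 and 5.82 in Bm12.4 and 5.77, 5.76, 5.40 and 5.62 in macrophages. That difference, 0.29 ± 0.11, lost its call without C57epi.1 supernatant replicates 1 or 2 (0.25 and 0.29, limma adjusted p = 0.108 and 0.0605) and without macrophage supernatant replicates 3 or 4 (0.21 and 0.28, adjusted p = 0.142 and 0.0673). The other HoxB genes, Hoxb1, Hoxb2, Hoxb5 and Hoxb13, never passed the low-signal references, and of them Hoxb5 was called higher in both lines than in macrophages (0.81 ± 0.13 and 0.51 ± 0.13 in media).

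In the HoxD cluster, Hoxd4, Hoxd8 and Hoxd9 stood above macrophages in both lines, and Hoxd8 had the largest estimated difference from macrophages of all 37 genes in each line and condition. Hoxd8, a gene of the trunk, read 8.42, 8.13, 8.59 and 8.47 in C57epi.1, 8.05, 7.94, 7.86 and 7.74 in Bm12.4 and 4.24, 3.82, 4.20 and 4.18 in macrophages in media. With supernatant the arrays were 9.07, 8.83, 8.61 and 8.65 in C57epi.1, 7.77, 7.66, 7.58 and 7.63 in Bm12.4 and 3.75, 4.07, 4.07 and 3.96 in macrophages. The macrophage arrays lay more than 3 units under both lines, and C57epi.1 lay above Bm12.4 without overlap. Limma gave 4.29 ± 0.12 against macrophages in C57epi.1 in media and 3.79 ± 0.12 in Bm12.4. The macrophage level lay under both references, so the size of these differences rests on a low signal there. Between the lines the difference was 0.51 ± 0.12 in media and 1.13 ± 0.12 in supernatant, and within arrays 1 and 2 in media it was 0.28 and not called (limma adjusted p = 0.348).

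Hoxd9 read 6.89, 6.62, 7.55 and 7.38 in C57epi.1, 6.59, 6.56, 6.81 and 6.45 in Bm12.4 and 5.03, 4.81, 5.30 and 4.48 in macrophages in media. Its values in supernatant were 6.70, 6.72, 6.47 and 6.42 in C57epi.1, 6.08, 6.22, 6.34 and 6.51 in Bm12.4 and 4.91, 5.28, 4.80 and 4.73 in macrophages. The macrophages lay under both lines, and the lines overlapped. The difference between the lines in media, 0.51 ± 0.18 (limma adjusted p = 0.0455), lost its call without C57epi.1 media replicates 3 or 4 (0.36 and 0.42, adjusted p = 0.188 and 0.146) and without Bm12.4 media replicates 1, 2 or 4 (0.50, 0.49 and 0.46, adjusted p = 0.0739, 0.0812 and 0.117). Within arrays 1 and 2 it was 0.18 (limma adjusted p = 0.532), and with only the arrays of the 2 groups the adjusted p was 0.158. Hoxd4, a gene of the cervical region that is known to respond to retinoic acid, read 6.62, 6.61, 7.14 and 6.75 in C57epi.1, 6.19, 6.07, 6.96 and 7.33 in Bm12.4 and 5.11, 4.96, 5.12 and 4.37 in macrophages in media. In supernatant it read 6.43, 6.60, 6.35 and 5.99 in C57epi.1, 6.43, 6.91, 7.09 and 6.89 in Bm12.4 and 5.18, 4.82, 4.83 and 5.05 in macrophages. In media it was above macrophages by 1.89 ± 0.23 in C57epi.1 and by 1.75 ± 0.23 in Bm12.4 and was not called between the lines (0.14 ± 0.23), where the estimate was 0.48 within arrays 1 and 2 and -0.20 within arrays 3 and 4. In Bm12.4 in media, arrays 3 and 4 lay above arrays 1 and 2 by 1.01.

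Hoxd3 read 5.57, 5.55, 6.02 and 5.73 in C57epi.1, 5.58, 5.65, 6.12 and 6.20 in Bm12.4 and 5.24, 5.18, 5.19 and 5.42 in macrophages in media. The arrays with supernatant gave 5.16, 5.06, 5.20 and 5.45 in C57epi.1, 5.89, 6.31, 5.92 and 6.46 in Bm12.4 and 5.41, 5.11, 5.01 and 5.20 in macrophages, so that the lines overlapped in media and did not in supernatant, where limma gave -0.93 ± 0.15 (adjusted p = 3.84e-05). Of the HoxD genes that never passed the references, Hoxd10, known in the hind limb and lumbar region, was lower in C57epi.1 than in Bm12.4, by -0.99 ± 0.16 in media (adjusted p = 5.89e-05) and -1.06 ± 0.16 in supernatant. Hoxd11 was called lower in supernatant (-0.44 ± 0.16). Hoxd1, Hoxd12 and Hoxd13 were called in none of the 6 comparisons between kinds of cell.

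Over all clusters, 13 of the 37 genes were higher and 6 lower in C57epi.1 than in Bm12.4 in media, or 19 in all, against the 24.4% of all genes called in either direction. In supernatant 11 were higher and 8 lower, where 14.3% of all genes were called higher and 15.6% lower. The median difference was 0.14 in media and 0.03 in supernatant, against -0.01 and 0.00 over all genes. By paralogue number in media, 0 of 7 genes of groups 1 to 3 were called, 5 were higher and 5 lower of 14 genes of groups 4 to 8, and 8 were higher and 1 lower of 16 genes of groups 9 to 13. The 5 lower genes of groups 4 to 8 were HoxA and HoxB genes, and the 5 higher ones were Hoxc4, Hoxc5, Hoxc6, Hoxc8 and Hoxd8. Among the 17 genes of lower signal, 4 were higher and 2 lower in media.

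Markers of other cell types also differed between the lines in media. Acta2, a smooth muscle actin, was higher in C57epi.1 by 4.23 ± 0.20. The mean of 4 smooth muscle genes was 5.71 to 6.15 in C57epi.1 and 4.63 to 5.11 in Bm12.4, but only Acta2 among them was called higher. The C57epi.1 mean was lower for Myh11 (4.80 against 5.04) and Cnn1 (4.38 against 4.51) and higher for Des (5.04 against 4.44). The collagen gene Col1a2 was higher by 6.42 ± 0.14, but the C57epi.1 means of Col1a1 (12.49 against 12.98) and Col3a1 (11.54 against 12.37) were lower. The mesothelial gene Lrrn4 was lower by -4.05 ± 0.45, while the C57epi.1 means of Msln (8.89 against 8.55) and Upk1b (7.01 against 6.17) were not. Over all genes, 24.4% were called in either direction between the lines in media, and several of the following counts come near that share. By list, 2 of 8 stromal genes were higher and 3 lower, 1 of 4 smooth muscle genes and 2 of 8 epithelial genes were higher, and 3 of 5 mesothelial genes were lower. Of endothelial, Muellerian duct and blood progenitor genes, 1 of 4, 2 of 7 and 2 of 6 were lower and 0 higher. The part of these differences in the Hox results was not tested.

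The second comparison asks what the supernatant did to each kind of cell. In C57epi.1, 10 Hox genes fell and 2 rose, 0 of them by 2-fold, while 10.4% of all genes were called lower, 8.85% higher and 3.84% by at least 2-fold. The 10 were Hoxa3, Hoxa10, Hoxa13, Hoxc5, Hoxc6, Hoxc9, Hoxc10, Hoxc13, Hoxd3 and Hoxd9, and the 2 that rose were Hoxa11 and Hoxd8. By cluster, the genes that fell were 3 of 10 in HoxA, 0 of 9 in HoxB, 5 of 9 in HoxC and 2 of 9 in HoxD. The estimate was below 0 for 31 of the 37 genes, called or not, with a median of -0.23 against -0.05 over all genes. By limma the largest differences were -0.94 ± 0.21 for Hoxc6 (adjusted p = 0.00284), -0.92 ± 0.19 for Hoxc13 (adjusted p = 0.000899), -0.66 ± 0.10 for Hoxa13 (adjusted p = 3.42e-05) and, upward, 0.64 ± 0.20 for Hoxa11 (adjusted p = 0.026). Hoxa10 fell by 0.61 (adjusted p = 0.000466). The other called genes were Hoxc5 (-0.60 ± 0.11), Hoxd9 (-0.53 ± 0.18), Hoxd3 (-0.50 ± 0.15), Hoxc9 (-0.47 ± 0.15), Hoxa3 (-0.41 ± 0.12), Hoxc10 (-0.32 ± 0.11) and Hoxd8 (0.39 ± 0.12). The media and supernatant arrays did not overlap for Hoxa3, Hoxa10, Hoxa13, Hoxc5, Hoxd3 and Hoxd8 and overlapped for the other 6. Overlap was not counted over all genes, and these genes were called on the same arrays, so it adds no support.

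Which genes were called here depended on the arrays used. Within arrays 1 and 2 of each group 3 genes were called, Hoxa13, Hoxc5 and Hoxd8, and within arrays 3 and 4 there were 17. The shares of all genes called in these subsets are not given here, so the contrast cannot be read as particular to Hox genes. Hoxa11 differed by 0.10 within arrays 1 and 2 (limma adjusted p = 0.885) and by 1.18 within arrays 3 and 4 (adjusted p = 8.62e-06). Hoxc13 differed by -0.40 (adjusted p = 0.244) and -1.44 (adjusted p = 6.27e-07), Hoxd9 by -0.04 (adjusted p = 0.915) and -1.02 (adjusted p = 0.00184), and Hoxd8 by 0.67 (adjusted p = 0.0218) and 0.10 (adjusted p = 0.567). In media, arrays 3 and 4 of C57epi.1 lay above arrays 1 and 2 by 0.94 for Hoxc13, 0.89 for Hoxc6 and 0.71 for Hoxd9 and below by 0.94 for Hoxa11. Over the 37 genes, arrays 3 and 4 lay wholly above arrays 1 and 2 for 20 genes and wholly below for 2 in that group. No such count was made over all genes, so this one cannot be read as particular to Hox genes. Arrays 3 and 4 of that group had the lower cell cycle means given above, and the mean of 8 stromal genes on its arrays was 10.10, 9.96, 10.86 and 10.79, against 9.72 to 9.84 in supernatant. With supernatant 5 of these 8 genes fell, among them Pdgfra (-2.18 ± 0.37), Col3a1 (-1.04 ± 0.20) and Col1a1 (-0.61 ± 0.10). Of the mesothelial genes, Lrrn4 (-1.69 ± 0.45) and Upk3b (-0.52 ± 0.16) fell, Wt1 rose (0.48 ± 0.15), and Msln and Upk1b were not called. The part of these in the Hox result was not tested. The count of 12 became 6 without C57epi.1 media replicate 3, 7 without C57epi.1 media replicate 4 and 6 without C57epi.1 supernatant replicate 2. With only the arrays of the 2 groups it was 7. Hoxc10 lost its call without any 1 of 7 of the 8 arrays, all but C57epi.1 media replicate 2, at differences from -0.33 to -0.23. Hoxd9 lost it without C57epi.1 media replicates 3 or 4 or any 1 supernatant array, at -0.58 to -0.39. Hoxa11 lost it without C57epi.1 media replicates 3 or 4 or C57epi.1 supernatant replicates 2, 3 or 4, at 0.42 to 0.63. Hoxc9 lost it without media replicates 3 or 4 or supernatant replicates 2 or 4, at -0.45 to -0.34, and Hoxd8 without media replicate 2 or supernatant replicates 1 or 2, at 0.29 to 0.37. Of the 9 called genes that passed the low-signal references in C57epi.1, Hoxa13 kept its call in every setting run, with a difference between -0.75 and -0.56.

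**Figure D4:**
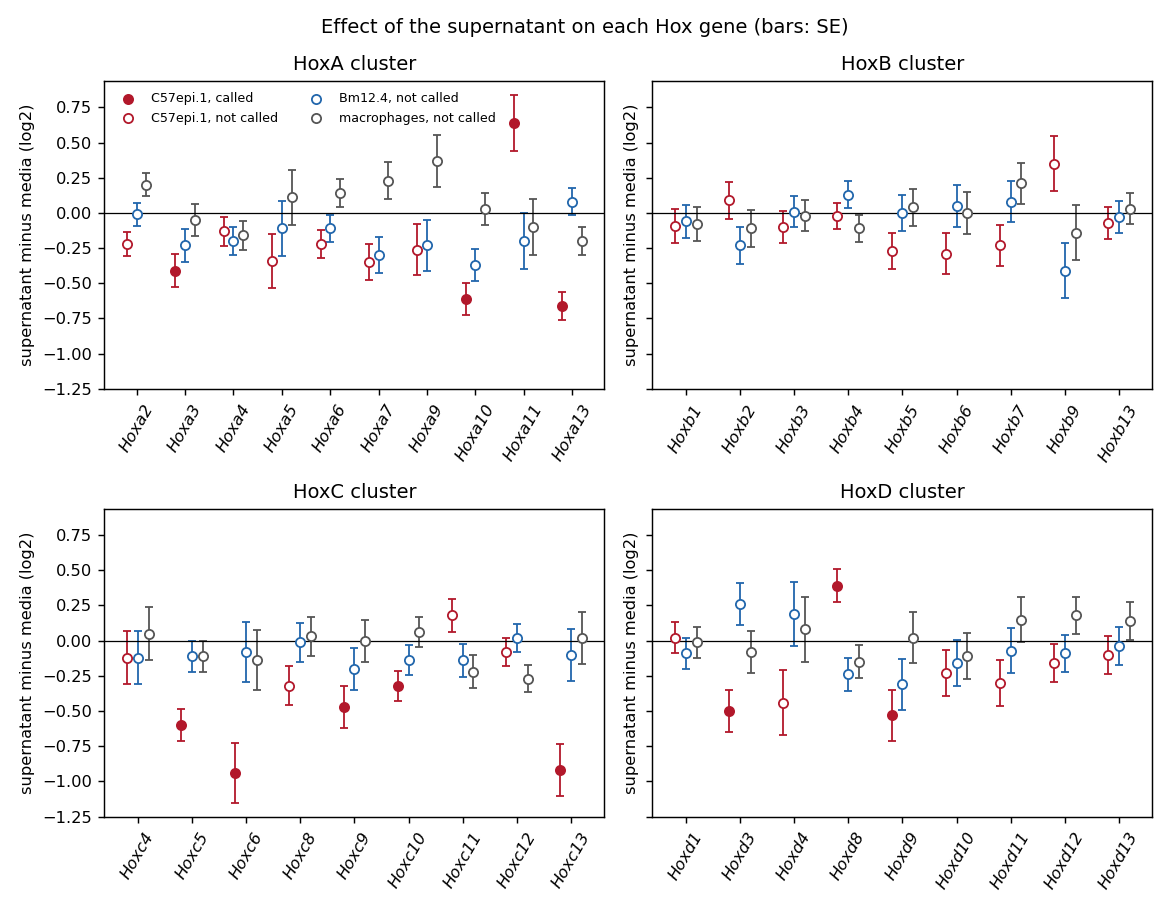
Difference in log2 level between supernatant and media for each Hox gene, 1 panel per cluster, in C57epi.1 (red), Bm12.4 (blue) and macrophages (grey), with SE from limma; filled points were called at an adjusted p under 0.05. In C57epi.1, 12 points are filled, 10 of them under 0, and no point is filled in Bm12.4 or macrophages.

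In Bm12.4 and in macrophages 0 of the 37 Hox genes were called by limma, where 7.25% of all genes were called in Bm12.4, and 6.13% were called higher and 6.31% lower in macrophages. At an unadjusted p under 0.05 there were 3 and 2. The estimates lay between -0.41 and 0.26 in Bm12.4 and between -0.27 and 0.37 in macrophages. Nearest to a call in Bm12.4 was Hoxa10, with -0.37 ± 0.12 (adjusted p = 0.0519), and its 4 supernatant arrays lay under the 4 media arrays. In Bm12.4, 2 genes were called within arrays 1 and 2 alone, Hoxa10 and Hoxb9, and 1 gene was called without Bm12.4 supernatant replicate 3, and in macrophages 1 gene without macrophage media replicate 4 and 1 without macrophage supernatant replicate 3.

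The difference between the 2 lines in the effect of the supernatant was called for 3 genes, where 1.99% of all genes were called higher and 2.04% lower in C57epi.1. It was -0.74 ± 0.14 for Hoxa13 (limma adjusted p = 0.00303), -0.76 ± 0.21 for Hoxd3 (adjusted p = 0.048) and 0.63 ± 0.17 for Hoxd8 (adjusted p = 0.0344). In Bm12.4 alone the effects were 0.08 ± 0.10, 0.26 ± 0.15 and -0.24 ± 0.12. The HoxC effects that were called in C57epi.1 were not called in this test: Hoxc13 gave -0.83 ± 0.26 (adjusted p = 0.0834) and Hoxc6 -0.85 ± 0.30 (adjusted p = 0.129). Hoxa11 gave 0.84 ± 0.28 (adjusted p = 0.101) and was not called either. Of the 3, Hoxa13 alone was left without C57epi.1 media replicate 4, C57epi.1 supernatant replicate 2, Bm12.4 media replicates 1 or 2 or Bm12.4 supernatant replicate 4, each of which gave a count of 1. Hoxa13 was also the only gene of the 3 left without C57epi.1 supernatant replicate 1 or Bm12.4 supernatant replicate 2. Hoxd3 also lost its call without C57epi.1 media replicate 3, C57epi.1 supernatant replicates 1 or 3 or Bm12.4 supernatant replicate 2, at an adjusted p of 0.118, 0.0754, 0.0884 and 0.104. Hoxd8 also lost it without C57epi.1 media replicate 2, C57epi.1 supernatant replicate 1 or Bm12.4 supernatant replicates 2 or 3, at 0.0514, 0.0701, 0.0619 and 0.0721. Within arrays 3 and 4, Hoxd8 was at 0.29 (limma adjusted p = 0.258), Hoxd3 at -0.58 (adjusted p = 0.163) and Hoxa13 at -0.71 (adjusted p = 0.0665), none of them called. Between the mean of both lines and macrophages the effect differed for Hoxa7 (-0.55 ± 0.16, limma adjusted p = 0.0315) and Hoxa10 (-0.52 ± 0.14, adjusted p = 0.0221), where 8.08% of all genes were called. That count of 2 became 0 without macrophage media replicate 1 or macrophage supernatant replicates 1 or 2, became 1 without C57epi.1 supernatant replicate 2, macrophage media replicate 4 or macrophage supernatant replicate 4, and became 5 without C57epi.1 media replicate 2 or macrophage supernatant replicate 3. Within arrays 3 and 4, Hoxa7 (-0.43, limma adjusted p = 0.112) and Hoxa10 (-0.36, adjusted p = 0.167) were not called. Hoxa7 was not called within arrays 1 and 2 either (-0.68, adjusted p = 0.146).

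Hox proteins bind DNA together with the TALE homeodomain proteins of the Meis, Pbx and Pknox families, and 10 genes of a list of these and the related Tgif repressors were measured. In media 6 were higher and 2 lower in C57epi.1 than in macrophages (all genes, 22.7% and 21.8%), and 7 were higher and 3 lower in Bm12.4 (22.1% and 20.8%). Meis2 read 8.29, 7.88, 8.52 and 8.36 in C57epi.1, 9.49, 9.74, 10.03 and 9.87 in Bm12.4 and 4.00, 4.16, 4.03 and 4.04 in macrophages in media. Meis1 read 6.87, 6.56, 7.30 and 7.31 in C57epi.1, 7.70, 7.84, 8.43 and 8.47 in Bm12.4 and 6.12, 5.79, 5.86 and 5.58 in macrophages. Both genes stood in the order macrophages, C57epi.1, Bm12.4 without overlap. Pbx3 read 7.42, 7.26, 8.0 and 7.89 in C57epi.1, 8.33, 8.34, 10.40 and 10.27 in Bm12.4 and 6.78, 6.45, 6.35 and 6.51 in macrophages, and in Bm12.4 arrays 3 and 4 lay about 2 units above arrays 1 and 2. Between the lines, 1 cofactor gene was higher and 4 lower in C57epi.1 in media, against 24.4% of all genes called in either direction: Tgif1 (0.56 ± 0.17) against Pbx3 (-1.69 ± 0.34, limma adjusted p = 0.000595), Meis2 (-1.52 ± 0.13, adjusted p = 4.1e-09), Meis1 (-1.10 ± 0.18, adjusted p = 4.01e-05) and Pknox2 (-0.38 ± 0.14). In supernatant Tgif1 (0.89 ± 0.17) and Pknox1 (0.55 ± 0.19) were higher and Pbx3 (-1.84 ± 0.34), Meis1 (-1.73 ± 0.18) and Meis2 (-1.54 ± 0.13) lower. Against macrophages in media, Meis3, Pbx4 and Tgif2 were also higher in both lines, by 0.37 to 1.02, and Tgif1 and Pbx2 lower, by -0.77 ± 0.17 and -0.45 ± 0.13 in C57epi.1. Pknox1 was lower and Pknox2 higher in Bm12.4 (-0.60 ± 0.19 and 0.39 ± 0.14). The supernatant lowered Meis1 (-0.70 ± 0.18), Meis3 (-0.55 ± 0.18) and Pbx2 (-0.53 ± 0.13) in C57epi.1 and Meis3 in macrophages (-0.56 ± 0.18).

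**Figure D5:**
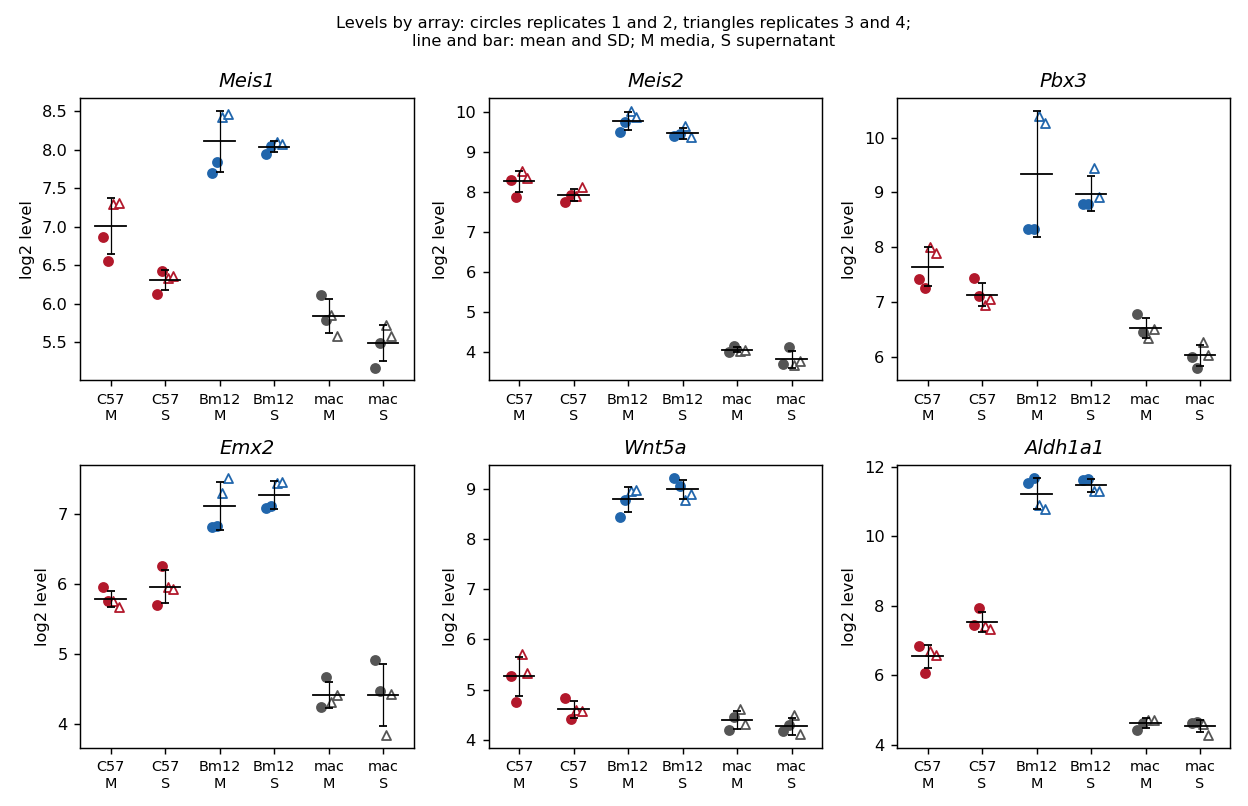
Log2 level on every array of 3 Hox cofactor genes (Meis1, Meis2 and Pbx3), of Emx2 and Wnt5a, regulators of the female tract, and of Aldh1a1, an enzyme of retinoic acid synthesis, by group, with mean and SD of 4 arrays; labels are as in the plot of 6 Hox genes. All 6 genes are higher in Bm12.4 than in C57epi.1 without overlap of arrays.

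Genes that flank the clusters were compared to see whether the difference between the lines reached past the Hox genes, and of 14 measured neighbours 0 were higher and 2 lower in C57epi.1 than in Bm12.4 in media, where 24.4% of all genes were called in either direction. The 2 were Skap2 (-0.42 ± 0.15) and Hibadh (-0.41 ± 0.10), which lie on either side of HoxA. The HoxC neighbours Smug1, Calcoco1, Cbx5 and Atf7 were not called in media, at -0.24 ± 0.09, -0.34 ± 0.52, -0.12 ± 0.28 and -0.66 ± 0.25, while in supernatant Atf7 (-1.05 ± 0.25), Hibadh (-0.62 ± 0.10), Skap2 (-0.47 ± 0.15) and Smug1 (-0.46 ± 0.09) were lower and Mtx2 (0.45 ± 0.14) higher. Against macrophages in media, Cbx5, Mtx2, Lnpk and Smug1 were higher and Skap2, Snx11, Hibadh and Snx10 lower in C57epi.1. In Bm12.4, Cbx5, Mtx2, Atf7 and Smug1 were higher and Skap2, Snx11 and Snx10 lower. The supernatant raised Snx10 in all 3 kinds of cell (0.89 ± 0.14, 0.94 ± 0.14 and 1.09 ± 0.14), Snx11 in C57epi.1 (0.81 ± 0.25) and Hibadh in macrophages (0.38 ± 0.10).

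Polycomb proteins keep silent Hox genes repressed, and of 20 measured genes of that list 6 were higher and 1 lower in C57epi.1 than in Bm12.4 in media, against 24.4% of all genes called in either direction. The largest were Phc1 (1.10 ± 0.14), Jarid2 (0.99 ± 0.20) and Phf19 (0.72 ± 0.13), and the lower one was Cbx7 (-0.88 ± 0.17). Of 17 measured genes of trithorax complexes, demethylases and their partners, which keep active Hox genes on, 3 were higher, Ash2l (0.96 ± 0.11), Kdm6b (0.78 ± 0.28) and Men1 (0.24 ± 0.08), and 2 lower, Kmt2c (-0.76 ± 0.13) and Kmt2d (-0.74 ± 0.13). With the supernatant in C57epi.1, where 8.85% of all genes rose and 10.4% fell, 3 of the 20 Polycomb genes rose, Eed (0.74 ± 0.21), Phc2 (0.51 ± 0.09) and Phc3 (0.46 ± 0.15), and 5 fell, of which the largest were Jarid2 (-0.94 ± 0.20), Cbx8 (-0.84 ± 0.19) and Cbx2 (-0.81 ± 0.15). Of the 17 trithorax-list genes, 3 rose, Aff1 (1.21 ± 0.18), Dot1l (0.88 ± 0.27) and Kmt2c (0.38 ± 0.13), and Men1 fell (-0.73 ± 0.08, limma adjusted p = 1.15e-06). In Bm12.4, where 7.25% of all genes and 0 Hox genes were called, Jarid2 also fell (-0.82 ± 0.20). Phc2 (0.38 ± 0.09) and Aff1 (0.61 ± 0.18) also rose there, and the other genes named for C57epi.1 with supernatant were not called.

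Retinoic acid and Cdx proteins are known to act upstream of Hox genes, and of 13 measured genes of these signals 1 was higher and 3 lower in C57epi.1 than in Bm12.4 in media (all genes, 24.4% in either direction). Aldh1a1 read 6.84, 6.07, 6.69 and 6.60 in C57epi.1 and 11.53, 11.68, 10.90 and 10.79 in Bm12.4, and limma gave -4.67 ± 0.19, or 25.5-fold (adjusted p = 4.77e-15). Aldh1a2, the main retinoic acid enzyme of the embryo, was lower by -3.65 ± 0.54 and the receptor gene Rarg by -1.46 ± 0.11, while the receptor gene Rara was higher by 0.86 ± 0.18. Of 20 measured regulators of the female tract, 0 were higher and 9 lower in C57epi.1 in media, against that same share of all genes. The 3 largest were Wnt5a (-3.53 ± 0.16, adjusted p = 5.52e-14), the estrogen receptor gene Esr1 (-1.77 ± 0.30, adjusted p = 7.62e-05) and Emx2 (-1.32 ± 0.18, adjusted p = 6.27e-06). Wnt5a read 5.27, 4.76, 5.71 and 5.33 in C57epi.1 and 8.45, 8.79, 8.96 and 8.99 in Bm12.4, and Emx2 read 5.96, 5.77, 5.77 and 5.68 and 6.82, 6.84, 7.30 and 7.52. The supernatant raised Aldh1a1 (0.99 ± 0.19), Gata4 (0.50 ± 0.15) and Wt1 (0.48 ± 0.15) and lowered Wnt5a (-0.66 ± 0.16) and Rara (-0.89 ± 0.18) in C57epi.1. Cdx2 was also called lower there (-0.26 ± 0.09), at a low signal of 4.35 against 4.61. In C57epi.1 in media the 95th percentile of the transcription factor reference was 5.83. Cdx2, Aldh1a2 (4.69), Esr1 (4.91), Wnt5a (5.27) and Emx2 (5.79) lay under it there, so the size of their differences rests on a low signal.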

How the data were processed

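RNA from 24 samples in 6 groups of 4 was measured on 1-colour Affymetrix arrays. The log2 values are used as deposited, and were made with GCOS, Partek 6.2 and RMA per the submitters' processing notes. RMA brings arrays to a common distribution, which can hide a shift common to most genes. Of 28853 probe sets, 21789 carry 1 gene symbol, 1621 several and 5443 none, and the probe set of highest mean stood for each of 19938 genes. Groups were compared with limma 3.58.1 in R 4.3.3 (lmFit and eBayes, 1 mean per group, 18 residual degrees of freedom), with Benjamini-Hochberg adjustment over all genes and a call at an adjusted p under 0.05. The fit was tested on simulated data. The number of arrays limits the precision.

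Members and lists were chosen with earlier results of these data known. Array values are given for members above both low-signal references in at least 1 group, and other members by range and count. For the lines in media and the supernatant in C57epi.1, all called members of the cofactor and neighbour lists and the 3 largest each way of the others are named; other comparisons of these lists are given in part. That rule did not cover the retinoic acid and Cdx genes, which, like values not called, were chosen after they were seen. Alternatives changed the filter, scaling, probe set rule, variance model, arrays used and replicate block. Same-numbered arrays deviated together (every correlation over 0.1) only between C57epi.1 and Bm12.4 in media and between Bm12.4 in media and in supernatant. Other pairs of groups came near that cut, such as C57epi.1 in media and Bm12.4 in supernatant (0.54, 0.05, 0.46 and 0.35). Arrays of different numbers were not correlated, so pairing by number was not tested apart from the division of arrays 1 and 2 from 3 and 4. Sequences and start positions are from RefSeq tables, build GRCm38.p6.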

Additional observations from a re-analysis of the deposited data

Results flagged for a closer look

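On the 4 C57epi.1 arrays with supernatant, Hoxa10 was lowest at 6.13 on replicate 3, while the other 3 arrays lay between 6.36 and 6.38. This was the 1 of 62 gene and group pairs in which an end array stood that far from the rest (Dixon's test), and chance flags about 1 in 20 groups.

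The effect of the supernatant differed between C57epi.1 and Bm12.4 for 3 genes by limma. It was lower in C57epi.1 by -0.74 for Hoxa13 (adjusted p = 0.00303) and by -0.76 for Hoxd3 (adjusted p = 0.048), and higher by 0.63 for Hoxd8 (adjusted p = 0.0344). Between the mean of both lines and macrophages it differed by -0.55 for Hoxa7 (adjusted p = 0.0315) and by -0.52 for Hoxa10 (adjusted p = 0.0221).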

How the results depend on the processing

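None of the called differences of Hox genes above the low-signal references changed sign in the alternatives run for them; estimates that were not called could, as Hoxd4 between the lines in media did within arrays 3 and 4 (-0.20). The counts of called Hox genes between kinds of cell stayed within 1.5 times the values given. Leaving out 1 array, they were 27 to 29 and 18 to 19 for C57epi.1 and Bm12.4 against macrophages in media, 21 to 24 and 18 to 19 in supernatant, and 17 to 20 between the lines in each condition. The supernatant count in C57epi.1 (12) was 7 with only the arrays of its 2 groups, 3 within replicates 1 and 2, and 6 to 13 leaving out 1 array. In Bm12.4 (0) it was 1 with genes under 5 left out, 1 with quantile normalization, 2 within replicates 1 and 2, and 0 to 1 leaving out 1 array, and in macrophages 0 to 1. The count of effects that differed between the lines (3) was 1 with only their arrays and 1 to 4 leaving out 1 array. It was 5 within replicates 3 and 4, none of them among the 3. Between lines and macrophages (2) it was 1 within replicates 1 and 2, and 0 to 5 leaving out 1 array. The causes were not tested. With the 99th percentile of the references, 4, 4, 4, 3, 0 and 0 genes lay above both, in the order C57epi.1, Bm12.4 and macrophages with media before supernatant, and with the 90th the last group had 4. With the replicate number as a block over all arrays, the counts were 28, 19, 12 and 0 for C57epi.1 against macrophages in media, between the lines in media, and for the supernatant in C57epi.1 and in Bm12.4. In the 2 pairs of groups whose numbers deviated together, the block on their arrays alone gave 17 and 0. The block ended the calls of Hoxa4 and Hoxa6 between the lines in media (groups alone, limma adjusted p = 0.0566 and 0.0609) and of Hoxc10 with supernatant in C57epi.1 (all arrays, adjusted p = 0.0501), and no other call of these 2 pairs of groups or of a Hox gene above the references. Low signal limits the 17 genes near the references.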

Other observations

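A microRNA gene of the HoxB cluster, Mir196a-1, had a low signal that differed between the lines, and it was chosen after its values were seen. Its mean was 3.08 ± 0.14 (SD, n = 4) in C57epi.1, against 3.90 ± 0.31 for Bm12.4 and 2.98 ± 0.03 for macrophages, all in media, and the supernatant groups had 3.0, 4.16 and 2.99. Limma gave a difference between C57epi.1 and Bm12.4 of -0.82 in media (adjusted p = 1.76e-04) and -1.16 in supernatant (adjusted p = 1.51e-06). For Mir196a-2 and Mir196b, which were also measured, the same difference in media was 0.01 ± 0.11 and -0.08 ± 0.13 (SE), and neither was called. The array reads each gene and not its mature product. The mature miR-196a-5p, whose family is known to target Hox messages, is printed from RefSeq (GRCm38.p6, chr11:96265187-96265208, plus strand) with its seed, bases 2 to 8, in capitals.
miR-196a-5p: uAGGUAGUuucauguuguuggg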
